A study of Homo sapiens with 24 samples.

Results

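The mRNAs of 9 genes, GCN1, TLN1, IGF2R, ESYT1, DPP3, TBCD, INTS1, ARAP3 and C1orf226, were followed over 24 libraries of RNA recovered with GFP-tagged RUVBL1 or RPAP3. They were chosen by their measured values, because their recovery with RUVBL1 was high, or higher, after puromycin. All 9 were found by symbol among the 28307 genes of the table, 1 row each. All 9 also passed the filter on low counts, among 15976 genes tested with RUVBL1 and 15202 with RPAP3. The choice used the 8 libraries of the RUVBL1 line without CB-6644, so values and counts of calls from those libraries are given as a description and support nothing. The rule of choice did not use the other 16 libraries, and the tests that bear on the members contrast groups among them. In the RUVBL1 line the filter, the scaling and the spread still came from all libraries of that line.

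RUVBL1 is an AAA+ ATPase that works with its relative RUVBL2. With RPAP3, a scaffold that also binds HSP90, they form the R2TP chaperone, which is known for the assembly of large protein and RNA-protein complexes such as RNA polymerases and PIKK kinases. A chaperone that holds a protein still being made brings down the mRNA on the ribosome, and puromycin ends translation early by releasing the unfinished chain.

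HCT116 is a human colorectal carcinoma line. In 1 derivative GFP had been knocked in by CRISPR/Cas9 on RUVBL1, and in another on RPAP3. Lysates went over beads carrying a GFP-binding antibody fragment (GFP beads) or over agarose beads without it (uncoupled beads), and the RNA on each was sequenced. The RUVBL1 line was given CB-6644 (0.5 µM, 16 h) and puromycin (100 µg/mL, 30 min) together, CB-6644 alone, puromycin alone, or neither. CB-6644 is an inhibitor of the RUVBL1/RUVBL2 ATPase. The RPAP3 line was treated with puromycin or left untreated. Each treatment was taken over GFP beads and over uncoupled beads, which gave 8 RUVBL1 groups and 4 RPAP3 groups, 12 in all, each of 2 libraries. All groups within a line carry the same tag, and whether a line is 1 clone was not given in the sources used here. Separate cultures for the replicates are not stated in the labels, and the spread behind each p-value may therefore be technical.

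Libraries of the RUVBL1 line held 9019665 to 33051512 counts and those of the RPAP3 line 30844089 to 50394245. Replicates correlated at 0.934 to 0.986 across genes. Among RUVBL1 libraries, one GFP library given CB-6644 alone (replicate 2), the shallowest of all, lay at 110.5 on the first principal component (24.4% of the variance). The first replicate of GFP beads with both drugs lay at 71.98, and no other library of that line was above 11.7. Replicate 2 of the untreated uncoupled beads lay at -89.4 on the second (15.2%). In the RPAP3 line the first component held 48.2% of the variance and set the 4 puromycin libraries apart from the 4 untreated ones on both kinds of bead. The RPAP3 mRNA was 3.27 ± 0.14 higher on RPAP3 GFP beads than on uncoupled beads of untreated cells on the log2 scale (edgeR's quasi-likelihood test, adjusted p = 4.2e-13). The RUVBL1 mRNA held 196.8 and 90.79 CPM on untreated RUVBL1 GFP beads, against 93.50 and 41.79 CPM on uncoupled beads, which overlap. Of 7 colon epithelial markers, 6 were detected in every library and VIL1 reached at most 1.06 CPM. Of 10 markers of blood, stroma and liver, 7 stayed under 1 CPM in every library, the exceptions being COL1A1 (5.21 to 41.6 CPM), VWF and APOA1.

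The 9 genes encode proteins of unlike function. GCN1 (chromosome 12, 120127202 to 120194715, minus strand, GRCh38) binds ribosomes and activates the kinase GCN2. INTS1 (chromosome 7, 1470277 to 1504389, minus) is the scaffold subunit of Integrator, which cleaves nascent transcripts. TBCD (chromosome 17, 82752065 to 82945914, plus) is a cofactor that folds and dimerises tubulin. TLN1 (chromosome 9, 35696948 to 35732195, minus) encodes talin, which links integrins to actin. IGF2R (chromosome 6, 159969082 to 160111504, plus) encodes the receptor that sorts mannose 6-phosphate enzymes to lysosomes and takes up IGF2. ESYT1 (chromosome 12, 56128267 to 56144674, plus) tethers the endoplasmic reticulum to the plasma membrane. ARAP3 (chromosome 5, 141653402 to 141682230, minus) is a GTPase-activating protein for small GTPases such as Arf. DPP3 (chromosome 11, 66480434 to 66509657, plus) is a cytosolic dipeptidyl peptidase. C1orf226 (chromosome 1, 162378997 to 162386812, plus) is annotated as protein coding, and no role is given for it here. TBCD held 82274 counts over the 24 libraries, against 12640 for QTGAL, which overlaps it on the opposite strand, so reads could have been shared between them if strand was not used in counting.

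The 250 bases upstream of each annotated start (RefSeq, GRCh38.p14) were compared because the 9 mRNAs were chosen by 1 shared readout. All 9 were matched by gene identifier. A GC box (GGGCGG on either strand) was present upstream of 6 of the 9 genes and of 42.3% of 27305 genes of any type. The 9 are all protein coding, and the motif shares were not computed for protein-coding genes alone. The box CCAAT was present at 2 of 9, against 33.0% of the 27305, and TATAAA at none of the 9, against 11.1%. The median GC content was 73.2% for the 9 and 62.4% for 15313 protein-coding genes. Shown 5′ to 3′ on the gene's strand are the member with the largest gain after puromycin (GCN1, upstream region chr12:120194716-120194965) and the most GC-rich one (IGF2R, chr6:159968832-159969081), with GC boxes in capitals.
GCN1: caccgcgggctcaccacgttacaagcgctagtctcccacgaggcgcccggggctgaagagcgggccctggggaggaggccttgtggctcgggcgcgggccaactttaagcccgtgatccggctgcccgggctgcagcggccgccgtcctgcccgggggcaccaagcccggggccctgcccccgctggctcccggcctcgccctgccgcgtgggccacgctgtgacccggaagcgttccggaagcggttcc
IGF2R: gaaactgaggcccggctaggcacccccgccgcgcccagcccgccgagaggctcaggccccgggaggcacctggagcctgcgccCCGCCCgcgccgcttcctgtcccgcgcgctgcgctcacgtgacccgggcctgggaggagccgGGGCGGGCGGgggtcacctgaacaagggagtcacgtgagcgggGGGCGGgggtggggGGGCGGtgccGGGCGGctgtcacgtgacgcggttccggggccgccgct
IGF2R carries 6 GC boxes at 79.2% GC, and GCN1 none at 75.2%. None of the 3 motifs was common to all 9, and the RNA measured here does not bear on what these letters do.

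After puromycin, in the libraries used for the choice, all 9 mRNAs were higher on RUVBL1 GFP beads than on both uncoupled libraries, as were 31.8% of all genes. Levels are given as CPM, each library's counts per fixed total after TMM scaling within its line, in replicate order. GCN1 stood at 1041 and 1457 CPM on GFP beads after puromycin, against 206.9 and 224.4 CPM on uncoupled beads. On the same beads from untreated cells it stood at 285.9 and 297.6 CPM with GFP beads, against 321.4 and 151.9 CPM with uncoupled beads. The high values are thus those of the GFP beads after puromycin, and the untreated libraries of the 2 bead types overlap. Enrichment is the log2 difference of GFP beads minus uncoupled beads. GCN1 had 2.53 ± 0.31 (standard error) after puromycin and 0.30 ± 0.29 untreated, a change of 2.23 ± 0.42.

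After puromycin each of the other 8 likewise lay higher on both GFP libraries than on both uncoupled ones. INTS1 stood at 494.0 and 732.7 CPM on GFP beads, against 117.4 and 146.9 CPM on uncoupled beads. TLN1 stood at 441.5 and 535.6 CPM, against 148.0 and 150.5 CPM on uncoupled beads. TBCD stood at 326.5 and 482.9 CPM, against 116.0 and 137.6 CPM on uncoupled beads. In each, the lower GFP library held more than 2 times the higher uncoupled one. ESYT1 stood at 183.1 and 267.7 CPM on GFP beads, against 58.70 and 59.59 CPM on uncoupled beads. DPP3 stood at 88.74 and 133.9 CPM, against 33.65 and 38.89 CPM on uncoupled beads. The membrane tether and the peptidase were likewise without overlap between beads. IGF2R stood at 88.26 and 84.87 CPM on GFP beads, against 32.25 and 30.54 CPM on uncoupled beads. ARAP3 stood at 62.26 and 104.0 CPM, against 18.45 and 18.93 CPM on uncoupled beads. C1orf226 stood at 25.83 and 29.38 CPM on GFP beads, against 5.75 and 6.576 CPM on uncoupled beads. In untreated cells both GFP libraries lay above both uncoupled ones for 2 of the 9, ARAP3 and C1orf226, beside 18.6% of all genes. ARAP3 held 34.05 and 31.58 CPM on untreated GFP beads, against 21.90 and 11.63 CPM on untreated uncoupled beads.

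**Figure D1:**
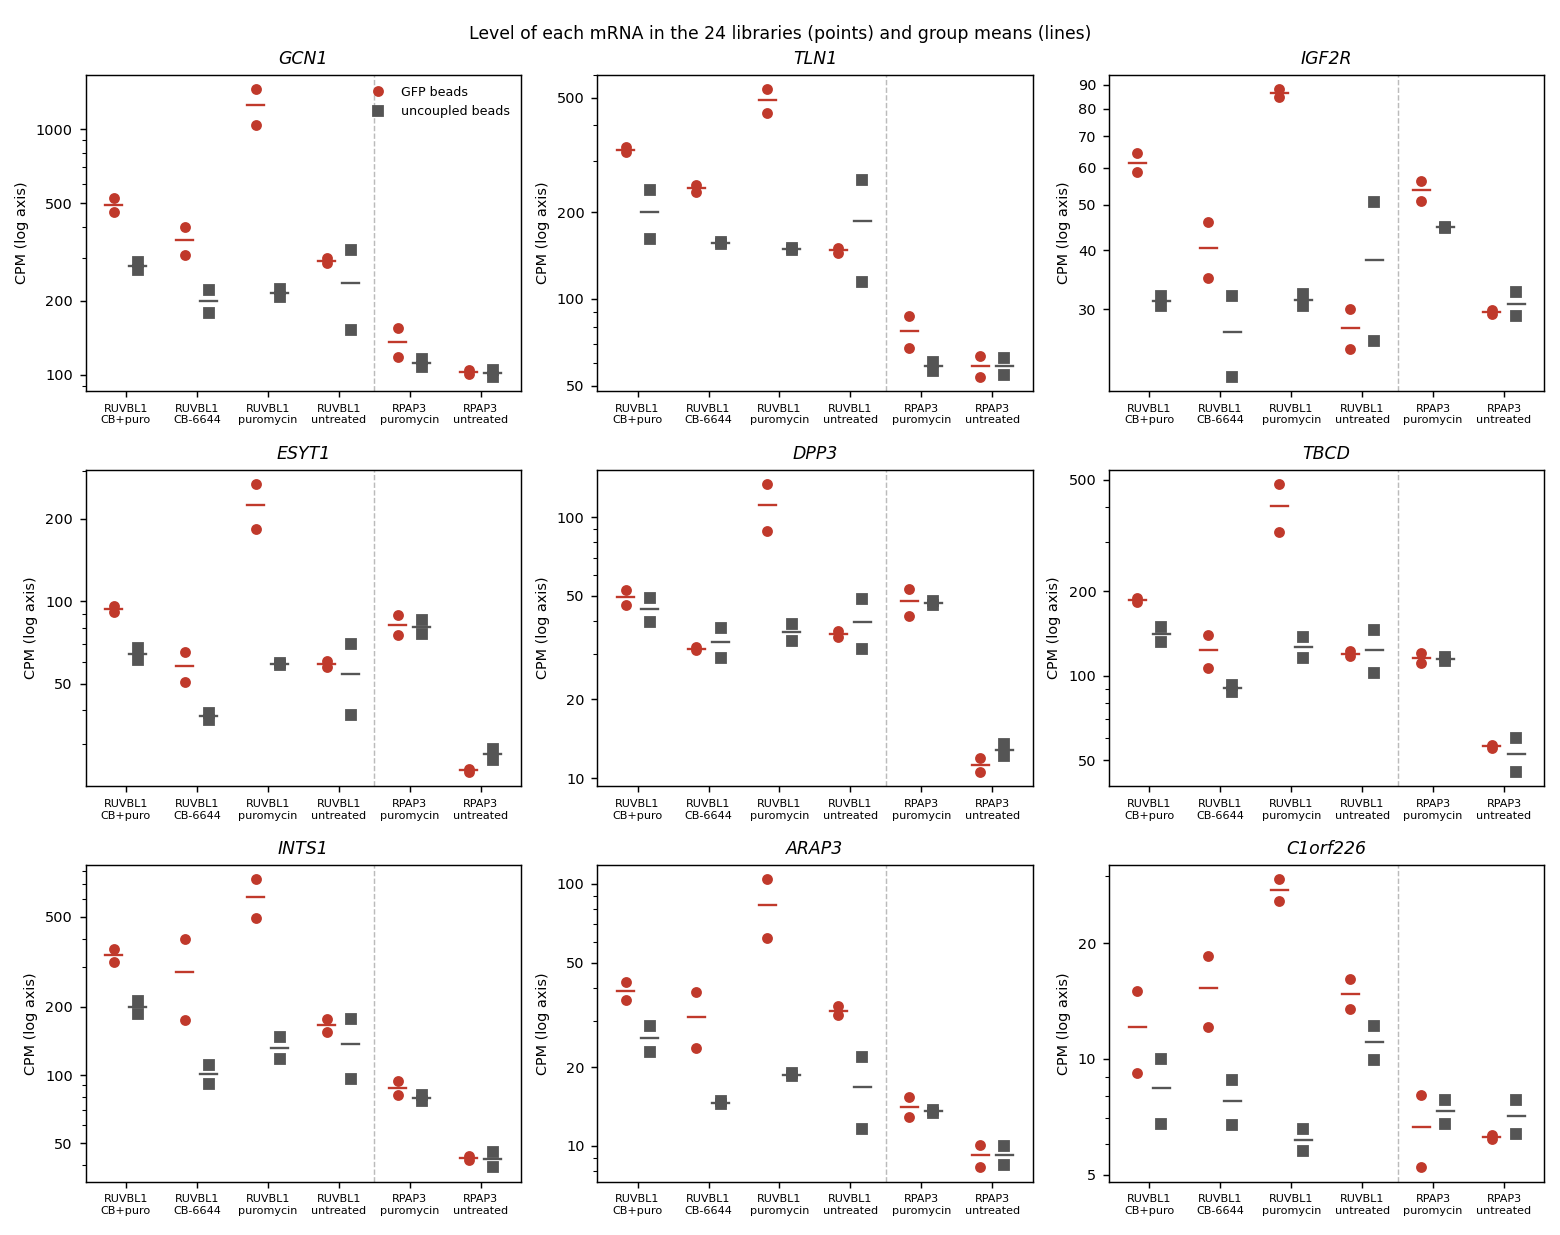
Level of each of the 9 mRNAs in CPM (log axis) in every library, with GFP beads as circles, uncoupled beads as squares and group means as lines, for the 4 treatments of the RUVBL1 line and the 2 of the RPAP3 line, each line scaled on its own. The GFP beads of the RUVBL1 line after puromycin hold the highest levels of all 9 mRNAs, for example 1041 and 1457 CPM of GCN1.

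Over the 9, enrichment after puromycin ran from 1.46 (IGF2R) to 2.53 (GCN1) with a median of 1.93, and in untreated cells from -0.49 (IGF2R) to 0.95 (ARAP3) with a median of 0.11. The median of all genes was 0 after puromycin and -0.04 in untreated cells. By size of enrichment after puromycin the members ranked between 253 and 820 of 15976 genes, so they were not the most enriched mRNAs of that pulldown. Calls were made at an adjusted p under 0.05. After puromycin 9 of 9 members were called higher on GFP beads, beside 9.95% of all genes, and in untreated cells 0 of 9, beside 0.914%. For the change in enrichment with puromycin, edgeR called GCN1, IGF2R, ESYT1, DPP3, TLN1 and TBCD higher, and no other gene (6 genes, 0.0376%). DESeq2 called 163 genes higher, 8 members among them, and edgeR with no filter on low counts 151, also with 8 members. These counts restate the choice and support nothing. Just inside the threshold of the main edgeR fit lay TBCD (1.72 ± 0.34), and just outside lay TMEM132A (1.78 ± 0.37) and PCDH1 (1.50 ± 0.31). INTS1 (1.94 ± 0.47), C1orf226 (1.75 ± 0.42) and ARAP3 (1.20 ± 0.41) lay further out.

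On GFP beads alone, the log2 difference of puromycin minus untreated ran from 0.90 (C1orf226) to 2.10 (GCN1) with a median of 1.73, a description of libraries that chose the members. On uncoupled beads the same difference had a median of -0.14 over the members and -0.05 over all genes, and 0% of genes were called either way by edgeR's quasi-likelihood test (1464 at an unadjusted p under 0.05, and 25 higher and 9 lower by DESeq2). The members' median was 0.40 without replicate 1 of the untreated uncoupled beads and -0.42 without replicate 2, so its sign turned with 1 library. C1orf226 had the lowest value here. Its GFP libraries held 25.83 and 29.38 CPM after puromycin, against 16.13 and 13.47 CPM untreated, and its uncoupled libraries 5.75 and 6.576 CPM after puromycin, against 12.21 and 9.955 CPM untreated. Its change in enrichment thus joined a gain of 0.90 ± 0.29 on GFP beads to a difference of -0.85 ± 0.31 on uncoupled beads.

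The untreated enrichment rested on uncoupled libraries that differed between replicates. TLN1 held 259.5 and 114.1 CPM on untreated uncoupled beads, and IGF2R 50.79 and 25.72 CPM. Without replicate 2 of those beads, which stood apart, the median untreated enrichment of the members was -0.25 and their median change with puromycin 2.18, with 9 of 9 called. Without replicate 1 the medians were 0.58 and 1.41, with 0 called. Leaving out either untreated GFP library, replicate 2 of the GFP beads after puromycin or either uncoupled library after puromycin also left 0 called for the change by edgeR.

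Under CB-6644 no member's enrichment passed a test of change with puromycin. The difference between enrichment after both drugs and enrichment after CB-6644 alone had a median of -0.04 over the members (range -0.74 to 0.38, 4 of 9 above 0), against 0.00 for all genes. None of the 9 was called (edgeR's quasi-likelihood test; 0 at an unadjusted p under 0.05, 0 by DESeq2), where 0.0501% of genes were called in either direction. GCN1 held 525.7 and 460.5 CPM on GFP beads after both drugs, against 307.2 and 400.6 CPM after CB-6644 alone. Its uncoupled libraries held 287.1 and 266.6 CPM after both drugs, against 221.7 and 177.7 CPM after CB-6644. GCN1 was thus higher after both drugs on either kind of bead, and its enrichment differed by 0.01 with a 95% interval of -0.84 to 0.86. Without CB-6644, in the libraries that chose the gene, it differed by 2.23 (1.37 to 3.09).

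The intervals of the other members under CB-6644 were similarly wide. For DPP3 the change was 0.24 (-0.47 to 0.95), against 1.78 (1.07 to 2.50) without CB-6644. For TBCD it was -0.04 (-0.74 to 0.66), against 1.72 (1.02 to 2.42) without CB-6644. Both had values near 0 under the inhibitor. For ESYT1 it was -0.07 (-0.79 to 0.65), against 1.82 (1.09 to 2.54), and for TLN1 0.08 (-0.74 to 0.91), against 2.06 (1.22 to 2.89) without CB-6644. For IGF2R it was 0.38 (-0.39 to 1.15), against 1.96 (1.18 to 2.73), the member with the highest estimate under the inhibitor. INTS1 (-0.74, -1.70 to 0.22), ARAP3 (-0.48, -1.32 to 0.36) and C1orf226 (-0.44, -1.32 to 0.44) had estimates below 0 that did not pass the test. The difference between the changes with and without CB-6644 was not tested, since the values without CB-6644 chose the members. Without both GFP libraries that stood apart, the median change under CB-6644 was 0.10 and 0 members were called.

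**Figure D2:**
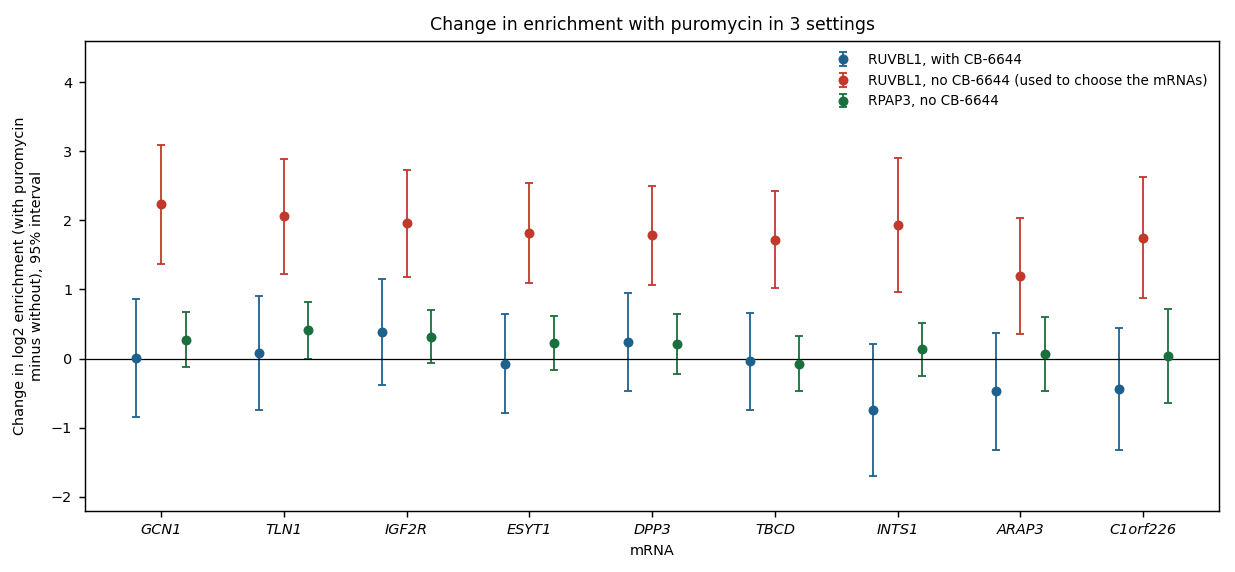
Change in log2 enrichment with puromycin for each mRNA, with its 95% interval, in the RUVBL1 line with CB-6644, in the RUVBL1 line without it (the values that chose the mRNAs), and in the RPAP3 line. GCN1 stood at 0.01, 2.23 and 0.27 in the 3 settings.

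No member's enrichment after both drugs passed edgeR's test. It ran from 0.16 (DPP3) to 0.98 (IGF2R) with a median of 0.60, and 7 of 9 members lay above both uncoupled libraries in both GFP libraries, against 22.7% of all genes. Of all genes 0.557% were called higher by edgeR's quasi-likelihood test. At an unadjusted p under 0.05 in that test lay 6 members and 1364 of 15976 genes. DESeq2 called 1 member, IGF2R at 0.99 (adjusted p = 0.041), beside 205 of 15976 genes higher and 3 lower. IGF2R held 64.42 and 58.61 CPM on GFP beads after both drugs, against 31.99 and 30.52 CPM on uncoupled beads. INTS1 held 359.7 and 315.8 CPM, against 213.2 and 186.6 CPM on uncoupled beads. The bead types did not overlap for either, and neither passed edgeR's test, with IGF2R at 0.98 ± 0.26 (adjusted p = 0.13) and INTS1 at 0.76 ± 0.33 (adjusted p = 0.53). DPP3 held 46.08 and 52.80 CPM on GFP beads after both drugs, against 39.62 and 49.20 CPM on uncoupled beads, which overlap.

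After CB-6644 alone INTS1, the Integrator scaffold, was higher on GFP beads. Its 174.5 and 398.6 CPM on GFP beads stood against 111.1 and 91.52 CPM on uncoupled beads, an enrichment of 1.50 ± 0.33 (edgeR's quasi-likelihood test, adjusted p = 0.021). It was the 1 member called of 9, where 1.87% of genes were called higher. The higher GFP value came from replicate 2, the shallowest library, which stood apart, and without that library the enrichment was 0.78 (adjusted p = 0.26). It was also not called without uncoupled replicate 1 (1.64, adjusted p = 0.14) or replicate 2 (1.36, adjusted p = 0.30). Without GFP replicate 1, the enrichment of the 9 members had a median of 0.77 (range -0.075 to 1.97), against 0 for all genes.

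ARAP3 followed at 1.08 ± 0.29 (edgeR adjusted p = 0.050, not under the threshold), with 23.63 and 38.50 CPM on GFP beads, against 14.47 and 14.81 CPM on uncoupled beads. C1orf226 was at 0.97 ± 0.30 (adjusted p = 0.078) and GCN1 at 0.83 ± 0.29 (adjusted p = 0.11). The median of the 9 was 0.64, and 8 lay above both uncoupled libraries in both GFP libraries, against 23.1% of all genes. The exception was DPP3, at 30.86 and 31.74 CPM on GFP beads and 37.55 and 28.87 CPM on uncoupled beads. DESeq2 called 4 of the 9 higher, namely INTS1, ARAP3, GCN1 and C1orf226, beside 944 of 15976 genes higher and 482 lower. The 2 enrichments under CB-6644 and the change between them share the same 8 libraries and are not independent of one another.

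**Figure D3:**
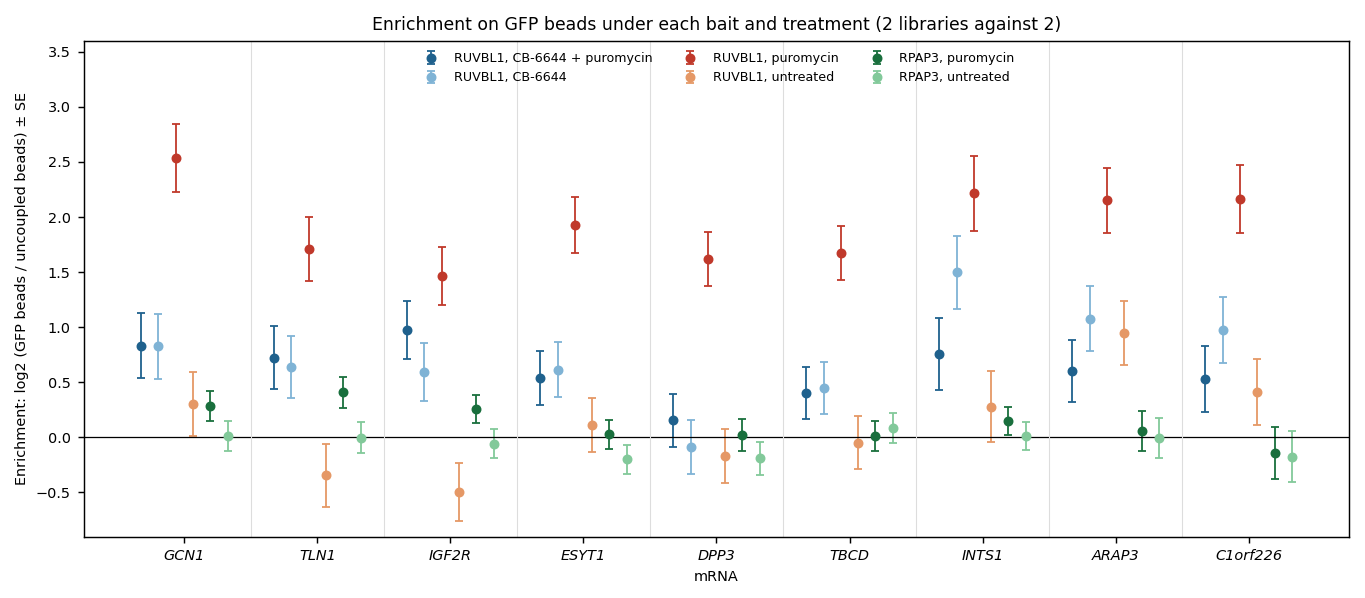
Enrichment of each mRNA (log2 of GFP beads over uncoupled beads, with its standard error, 2 libraries against 2) in the RUVBL1 line after CB-6644 with puromycin, after CB-6644, after puromycin and untreated, and in the RPAP3 line after puromycin and untreated. The RUVBL1 values after both drugs lie between 0.16 and 0.98, those after puromycin alone, which chose the mRNAs, between 1.46 and 2.53, and those of RPAP3 between -0.20 and 0.41.

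RPAP3 did not recover these mRNAs above its uncoupled beads at a level that passed the test. In untreated cells enrichment ran from -0.20 (ESYT1) to 0.09 (TBCD) with a median of 0.00, and none of the members was called higher, beside 1.53% of genes (edgeR's quasi-likelihood test; 0 at an unadjusted p under 0.05, 0 by DESeq2). The 95% intervals of all 9 ended at or below 0.38 in untreated cells. After puromycin it ran from -0.14 (C1orf226) to 0.41 (TLN1) with a median of 0.06, and again none was called higher, beside 0.46% of genes. At an unadjusted p under 0.05 (edgeR) lay 2 members and 629 of 15202 genes, and DESeq2 called 0 members. TLN1 held 67.80 and 87.59 CPM on GFP beads after puromycin, against 60.57 and 56.40 CPM on uncoupled beads, a difference of 0.41 (0.12 to 0.70, adjusted p = 0.62). GCN1 held 117.9 and 155.2 CPM, against 108.0 and 115.8 CPM on uncoupled beads (0.29, 0.00 to 0.57). IGF2R held 51.06 and 56.30 CPM, against 44.72 and 44.95 CPM on uncoupled beads (0.26, -0.01 to 0.53). In these 3 members both GFP libraries lay above both uncoupled ones, as they did for 18.5% of genes. The change in RPAP3 enrichment with puromycin had a median of 0.21 over the members (0.34 without GFP puromycin replicate A, 0.02 without replicate B) and was called in none of them, beside 0.25% of genes in either direction (edgeR; 0 members at an unadjusted p under 0.05, 0 by DESeq2). Its upper 95% bounds ran from 0.32 (TBCD) to 0.82 (TLN1). The changes with RUVBL1, 1.20 to 2.23, chose the members and are large for that reason. The difference between the lines was therefore not tested.

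In the RPAP3 line the RNA on the uncoupled beads themselves differed between puromycin and untreated libraries. There 6 of the 9 mRNAs rose, where 23.5% of genes were called higher (3577) and 19.4% lower (2955). DPP3 held 47.53 and 46.06 CPM on uncoupled beads after puromycin, against 13.53 and 12.15 CPM untreated, 1.87 ± 0.15 higher on the log2 scale (edgeR's quasi-likelihood test, adjusted p = 3.9e-09). On GFP beads of the same line DPP3 held 41.91 and 53.11 CPM after puromycin, against 10.55 and 11.95 CPM untreated. The peptidase mRNA was thus higher in all 4 puromycin libraries than in all 4 untreated ones. ESYT1 held 85.40 and 75.80 CPM on uncoupled beads after puromycin, against 26.41 and 28.85 CPM untreated (1.54 ± 0.13, adjusted p = 8.6e-09). TBCD held 112.9 and 116.4 CPM, against 60.23 and 45.40 CPM untreated (1.12 ± 0.14, adjusted p = 9.6e-07). INTS1 held 76.62 and 81.97 CPM, against 45.78 and 39.17 CPM untreated (0.90 ± 0.13, adjusted p = 8.6e-06). Both puromycin libraries lay above both untreated ones for 7 of the 9 mRNAs, these 4 among them, as they did for 34.4% of all genes.

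IGF2R rose by less, with 44.72 and 44.95 CPM after puromycin, against 28.99 and 32.66 CPM untreated (0.54 ± 0.13, adjusted p = 0.0019), a call not kept with all 24 libraries in 1 fit (0.45, adjusted p = 0.16). ARAP3 had 13.74 and 13.33 CPM, against 9.97 and 8.491 CPM untreated (0.55 ± 0.18, adjusted p = 0.017), a call not kept without either uncoupled puromycin library or without replicate B of the untreated ones (adjusted p = 0.060 to 0.16), nor with upper-quartile scaling (0.087) or all 24 libraries in 1 fit (0.22). The other 3 did not pass the test: GCN1 at 0.14 ± 0.14, whose sign turned with upper-quartile scaling (-0.03), TLN1 at -0.0018 ± 0.14 and C1orf226 at 0.05 ± 0.23. On RUVBL1 GFP beads, in libraries that chose the members, these 3 changed by 2.10 (GCN1), 1.73 (TLN1) and 0.90 (C1orf226). The 6 called on RPAP3 uncoupled beads changed there by 1.34 (ARAP3) to 1.93 (ESYT1). A link between the 2 sets of values was not tested. In the RPAP3 line each treatment is 2 libraries per bead type, and all 4 puromycin libraries lie apart from the untreated ones. The treatment and any other difference between those libraries thus cannot be told apart. In these bulk samples more mRNA per cell, more cells with it and more carry-over onto the beads cannot be told apart either.

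**Figure D4:**
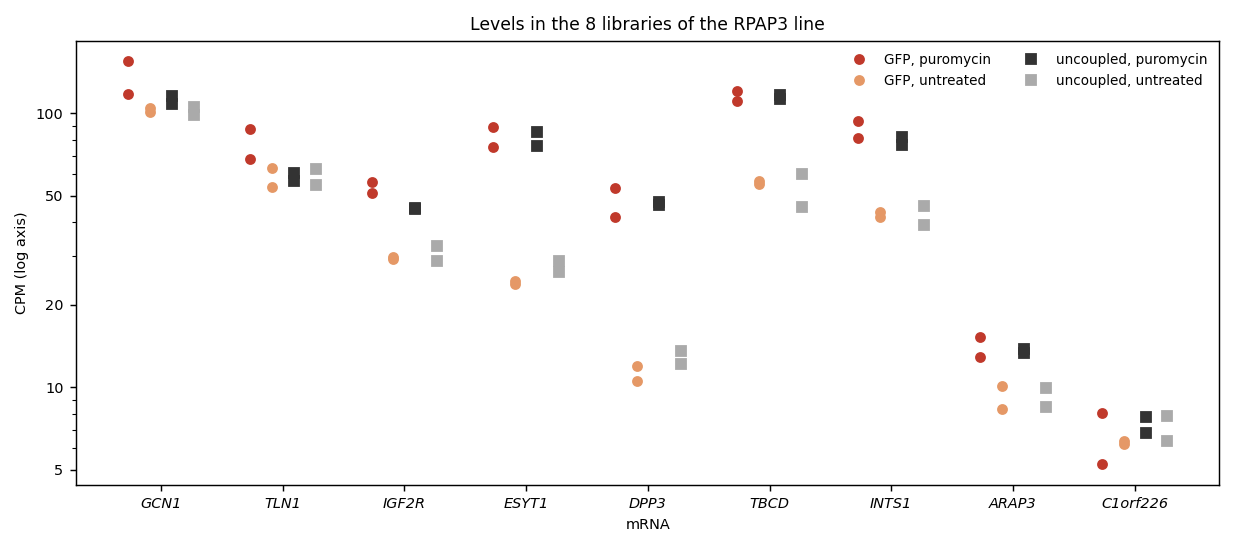
Level of each mRNA in CPM (log axis) in the 8 libraries of the RPAP3 line, with GFP beads as circles and uncoupled beads as squares, puromycin left of untreated. DPP3 lies at 41.91 to 53.11 CPM in all 4 puromycin libraries and at 10.55 to 13.53 CPM in all 4 untreated ones, whichever the bead.

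In the RUVBL1 line under CB-6644, no member's difference between treatments on uncoupled beads passed the test. After both drugs minus after CB-6644 alone it had a median of 0.47 over the 9 (0.11 to 0.98, all above 0), and both libraries lay above both of CB-6644 alone for 7 of the 9, against 28.8% of all genes. Of all genes 0% passed (edgeR's quasi-likelihood test; 4 members and 1422 genes at an unadjusted p under 0.05; DESeq2 called 0 members and 72 genes). INTS1 held 213.2 and 186.6 CPM after both drugs, against 111.1 and 91.52 CPM after CB-6644 (0.98 ± 0.33, adjusted p = 0.44). ESYT1 held 60.99 and 67.72 CPM after both drugs, against 36.97 and 38.91 CPM (0.76 ± 0.25, adjusted p = 0.43). Uncoupled beads are the denominator of enrichment. What these differences, none of which passed edgeR's test, do to the enrichments was not tested.

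The 9 mRNAs did not all vary alike over the 24 libraries. Pearson's r of log2 CPM with the mean of the other 8 ran from 0.639 (IGF2R) to 0.958 (TBCD), given as a description since libraries share treatments, baits and the choice of members. GCN1 and ARAP3 had r = 0.963, and TLN1 and IGF2R had 0.428. ESYT1, DPP3 and TBCD, the 3 with the highest rise on RPAP3 uncoupled beads, had r of 0.926 to 0.944 with one another. Among 10893 other genes averaging at least 5 CPM, the 10 most like the mean of the 9 were EDC4 (0.977), USP19 (0.974), CCAR2 (0.969), ANKFY1 (0.969), PTPRF (0.968), KDM5C (0.968), GEMIN4 (0.965), SCAP (0.963), RANGAP1 (0.963) and GEMIN5 (0.963). EDC4, an mRNA decapping scaffold, had an enrichment of 1.64 with RUVBL1 after puromycin and 0.63 after both drugs, and 0.12 with RPAP3 after puromycin. GEMIN5, which binds snRNAs for the SMN complex, had 1.37, 0.42 and -0.06 in the same order.

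Partners and functional relatives of the proteins other than C1orf226, together called partners below, were followed as 8 lists. These held 132 genes tested with RUVBL1 and 131 with RPAP3. Lists were compared by counts and medians only. With RUVBL1 after puromycin 27 of 132 were called higher and 3 lower, beside 9.95% higher and 3.82% lower of all genes, in libraries that also chose the 9 and are given as a description. Among the integrin adhesion list of talin, 5 of 21 were higher and none lower, led by FLNA, an actin crosslinker (2.05 ± 0.37). Lysosomal sorting, the list of IGF2R, had 5 of 16 higher and 1 lower, with GGA2 (1.49 ± 0.23) and SORL1 (1.51 ± 0.28), both trans-Golgi sorting proteins. Of 19 small GTPases and their regulators, the ARAP3 list, 4 were higher, among them its relative ARAP1 (1.50 ± 0.26) and AGAP1 (1.49 ± 0.24). The contact-site list of ESYT1 had 5 of 16 higher (ANO8, 1.56 ± 0.32). Integrator had 3 of 17 higher, with INTS5 at 1.19 ± 0.22. The list of DPP3, mostly peptidases, had 2 of 10 higher, the peptidase PREP (0.75 ± 0.24) and KEAP1 (0.81 ± 0.22), which is not a peptidase. The ribosome-stall and stress-kinase list of GCN1 had 3 of 26 higher and 1 lower. Tubulin cofactors had none higher of 7 and 1 lower, TBCA (-0.89 ± 0.29). The 9, chosen on these values, had a median of 1.93, and the partner lists -0.26 to 0.57.

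In enrichment outside the choice few partners were called by edgeR. After CB-6644 alone 2 of 132 were higher, beside 1.87% of all genes. They were EIF2AK4, the kinase GCN2 that GCN1 activates (0.97 ± 0.24, edgeR adjusted p = 0.033), and AP1B1, a clathrin adaptor subunit (0.94 ± 0.25, adjusted p = 0.048). At an unadjusted p under 0.05 (edgeR) lay 36 partners and 3531 of 15976 genes. DESeq2 called 11 partners higher and 1 lower, beside 944 and 482 of all genes. After both drugs none was called by edgeR or DESeq2, with 16 partners and 1364 of 15976 genes at an unadjusted p under 0.05 (edgeR). With RPAP3 in untreated cells 3 of 131 were higher, beside 1.53% of all genes: EIF2AK4 again (0.84 ± 0.13, edgeR adjusted p = 0.00037), NEMF, a ribosome quality control factor (0.52 ± 0.13, adjusted p = 0.043), and TPP2, a cytosolic peptidase (0.59 ± 0.14, adjusted p = 0.029). At an unadjusted p under 0.05 (edgeR) lay 12 partners and 1207 of 15202 genes, and DESeq2 called 3 partners and 290 genes higher. With RPAP3 after puromycin none was called by edgeR or DESeq2, with 4 partners and 629 of 15202 genes at an unadjusted p under 0.05 (edgeR). GCN1 itself was at 0.01 ± 0.14 with RPAP3 in untreated cells, where its partner kinase was higher.

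On uncoupled beads of the RPAP3 line 63 of 131 partners rose and 16 fell with puromycin, beside 23.5% higher and 19.4% lower of all genes. Lysosomal sorting had 10 of 16 higher and none lower, with VPS35, a retromer subunit (1.77 ± 0.14, edgeR adjusted p = 2.7e-09). The list of DPP3, mostly peptidases, had 8 of 10 higher, led by TPP1, a lysosomal tripeptidyl peptidase (2.50 ± 0.14, edgeR adjusted p = 6.5e-11). Integrin adhesion had 11 of 21 higher and 2 lower, with the integrins ITGB1 (2.03 ± 0.15) and ITGA6 (1.69 ± 0.13). Integrator had 9 of 17 higher and 1 lower, with INTS4 at 1.70 ± 0.15. The list of GCN1 had 14 of 26 higher and 2 lower, led by ABCF3 (1.55 ± 0.13), and that of ESYT1 5 of 15 higher, with ESYT2 at 0.72 ± 0.12. Tubulin cofactors had 2 of 7 higher (TBCC, 1.03 ± 0.15) and 4 lower (TBCB, -0.51 ± 0.12), and the list of ARAP3 4 of 19 higher and 7 lower (ARF5, -0.73 ± 0.13).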

How the data were processed

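RNA from GFP or uncoupled beads was sequenced in 24 libraries of HCT116 cells. The authors deposited 1 table of raw counts per gene, not normalized. Per the submitters' processing notes, their making involved TopHat2 2.1.1, featureCounts 2.0.3, bcl2fastq 2.20.0.422, MultiQC 1.12 and FastQC 0.11.9 and build hg38. How strand and multi-mapping reads were handled, and which annotation was used, is not given in the sources used here. No molecular identifiers are named.

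Groups came from the labels. Counts were tested with edgeR 4.0.16 (R 4.3.3; filterByExpr, TMM, robust quasi-likelihood test, Benjamini-Hochberg over all genes tested, called at adjusted p under 0.05), 1 fit per line with 2 libraries per group. Standard errors come from the F statistic and pool the spread of the whole line. CPM are counts scaled by library total and TMM factor within a line. Alternatives were upper-quartile and total-count scaling, DESeq2 1.42.0, no filter, the replicate block, other sets of libraries and leaving out each replicate. Removal of 2 libraries that stood apart was added after seeing the data. Scripts were tested on simulated data.

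The members and gene lists were chosen with earlier results of these data known. Named beside the 9 members are the bait mRNAs, up to 4 called genes of each list by smallest p, and the 10 genes most correlated with the members. TMEM132A and PCDH1 were named after their values were seen, as the genes next to the threshold. Marker genes of colon epithelium and of blood, stroma and liver were checked once. Positions and upstream sequences are from RefSeq, GRCh38.p14.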

Additional observations from a re-analysis of the deposited data

Results flagged for a closer look

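C1orf226 lay on opposite sides of its uncoupled beads with the 2 baits in untreated cells. The log2 ratio of mean CPM, GFP over uncoupled beads, was 0.417 in the RUVBL1 line, where both GFP libraries lay above both uncoupled ones (as for 18.6% of genes), and -0.179 in the RPAP3 line, where both lay below (16.5%). On the RPAP3 side the GFP libraries held 6.353 and 6.178 CPM, against 7.824 and 6.359 CPM on uncoupled beads, and the fitted difference was -0.18 ± 0.23. The difference between the lines was not tested, and the RUVBL1 libraries were among those that chose this gene.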

How the results depend on the processing

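For enrichment after CB-6644 the count of 1 became 2 with upper-quartile scaling, 3 with total-count scaling, 4 with DESeq2, 4 with no filter on low counts, 4 with all 24 libraries in 1 fit, 0 with only the 8 CB-6644 libraries, 0 without both GFP libraries that stood apart, and 0 to 5 when leaving out each replicate. Total-count scaling moved the median of the 9 in that comparison to 0.88, and the median of all genes to 0.26. For enrichment after both drugs the count of 0 became 1 with DESeq2, with no filter and with all 24 libraries. DESeq2 and the fit with no filter each called 8 members for the change in RUVBL1 enrichment with puromycin. For the change in RUVBL1 enrichment with puromycin the count of 6 became 0 with total-count scaling and 0 to 9 when leaving out each replicate, and for untreated RUVBL1 the count of 0 became 1 with no filter and 0 to 1 when leaving out each replicate. On RPAP3 uncoupled beads the count of 6 was 5 with upper-quartile scaling and 4 with all 24 libraries (5 to 6 leaving out each replicate). Upper-quartile scaling moved the median of all genes there to -0.23, the genes called to 2862 higher and 4310 lower, against 3577 and 2955, and GCN1 to -0.0337 (adjusted p = 0.85). Total-count scaling gave 3154 higher and 3477 lower there. The cause was not tested. Of 855 single member values under alternatives in the tested comparisons, 818 kept their sign and side of the threshold or stayed within 1 SE of 0. Counts over all genes ranged from 53 to 3554 for enrichment after CB-6644 (387), 18 to 223 after both drugs (89), 307 to 3104 after puromycin (2201), 43 to 367 untreated (149), 8 to 348 for the change with puromycin (18), 4 to 161 for that under CB-6644 (8), 74 to 1483 for RUVBL1 GFP beads (805), 57 to 403 for RPAP3 untreated (234), 12 to 136 for RPAP3 after puromycin (70), 16 to 64 for its change (38), 4056 to 7172 for RPAP3 uncoupled beads (6532), 0 to 72 for uncoupled beads under CB-6644 (0) and 0 to 74 for those without it (0). The gene-by-gene difference between the 2 replicates of a group was correlated between groups. Its r was -0.412 to 0.27 (median 0.038) over 28 pairs of groups in the RUVBL1 line, with 4 pairs over 0.1. In the RPAP3 line it was -0.117 to 0.159 over 6 pairs, with 2 over 0.1. These counts leave out negative r. The lowest, -0.412, was between the GFP groups of CB-6644 alone and of both drugs, which hold both GFP libraries that stood apart. Those groups also enter the change under CB-6644. Most pairs of groups shared little between same-numbered replicates, and the main fits did not pair them. With the replicate block the members called were 1 for enrichment after CB-6644 and 6 for the change with puromycin, as without it. Upper-quartile scaling gave 1361 higher and 1181 lower for enrichment after puromycin, against 1590 and 611, 523 and 301 for RUVBL1 GFP beads, against 653 and 152, and 308 and 176 after CB-6644, against 298 and 89, where total-count scaling gave 771 and 47. Depth is lowest for C1orf226, with 101 to 875 counts per library, and 2 libraries per group limit every test.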
